A study of Rattus norvegicus with 6 samples.

Results

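Cadherins are calcium-dependent adhesion proteins of the cell surface, and 63 of the 32883 rows of the gene table belonged to the classical cadherins, their numbered relatives and the protocadherins. The members were the protein-coding rows whose symbol was Cdh or Pcdh followed by a number, or Pcdh followed by the letter of the alpha, beta or gamma cluster. Cdh23 and Pcdh15, which form the tip link of the hair bundle, were not members. The 63 rows were divided by symbol into 5 type I cadherins, 13 type II cadherins, 4 other numbered cadherins, 10 non-clustered protocadherins, and 3 alpha, 16 beta and 12 gamma rows of the clustered protocadherins.

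Type I cadherins such as E-cadherin (Cdh1) and N-cadherin (Cdh2) hold neighbouring cells together at adherens junctions, where their tails bind the catenins and through them the actin cytoskeleton. Type II cadherins have the same layout and are known for sorting cells and nerve fibres into groups. The clustered protocadherins are encoded side by side, each variable exon has its own promoter, and in neurons a promoter is chosen at random in each cell, which gives the cell a surface identity. In the vestibular epithelium, junctions between hair cells and supporting cells seal the sensory sheet.

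RNA was sequenced from the vestibular epithelium of 6 Long-Evans rats, with 2 utricles and 6 cristae pooled from each animal. The 3 Control animals received PBS and the 3 STREP animals received streptomycin, an aminoglycoside antibiotic toxic to hair cells, at 500 mg/kg under the skin every day from postnatal day 21 over 6 weeks. In both groups replicates 1 and 2 were male and replicate 3 was female. The labels named no batch that divided the 6 libraries. The comparison asked which transcripts differed after a long exposure to the drug. Markers of Schwann, endothelial, stromal and other cells had counts in every library, and no hair cell marker of a list of 10 was at 0 in any library.

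Library totals ran from 48568191 to 59906048 counts in Control and from 29333584 to 33744909 in STREP, so depth separated the groups. The members took between 0.104% and 0.153% of the counts of a library. Values below are normalised counts, which are counts divided by a size factor for each library, and a total of 3 counts, taken as the detection floor, came to between 1.84 and 4.49 normalised counts. This floor covers counting error only, and the intervals given below come from the spread between animals in the DESeq2 fit. A gene was called changed when the DESeq2 adjusted p-value was under 0.05 and the fold change in either direction was over 1.5. Normalised counts were not corrected for transcript length, so they compare animals and not genes.

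Of the 63 members, 57 could be tested and 2 were called. Pcdh1 (ENSRNOG00000060410) was higher in STREP and Cdh18 (ENSRNOG00000010535) was lower. The share called, 2 of 57 or 3.51%, was close to the 3.24% of all genes tested, of which 527 of 16250 were called, 1.87% higher and 1.37% lower. Cdh9, Cdh10, Cdh16 and Pcdhb1 were listed at 0 in all 6 libraries, and Cdh26 and Pcdh8, with at most 7 counts in a library, had no adjusted p-value. An unadjusted p under 0.05 was found for 6 of the 57 members and for 12.2% of all genes tested. The mean normalised count was at least 100 for 41 members. Over these 41 the median log2 fold change was 0.06, against 0.004 for all genes at that level.

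**Figure D1:**
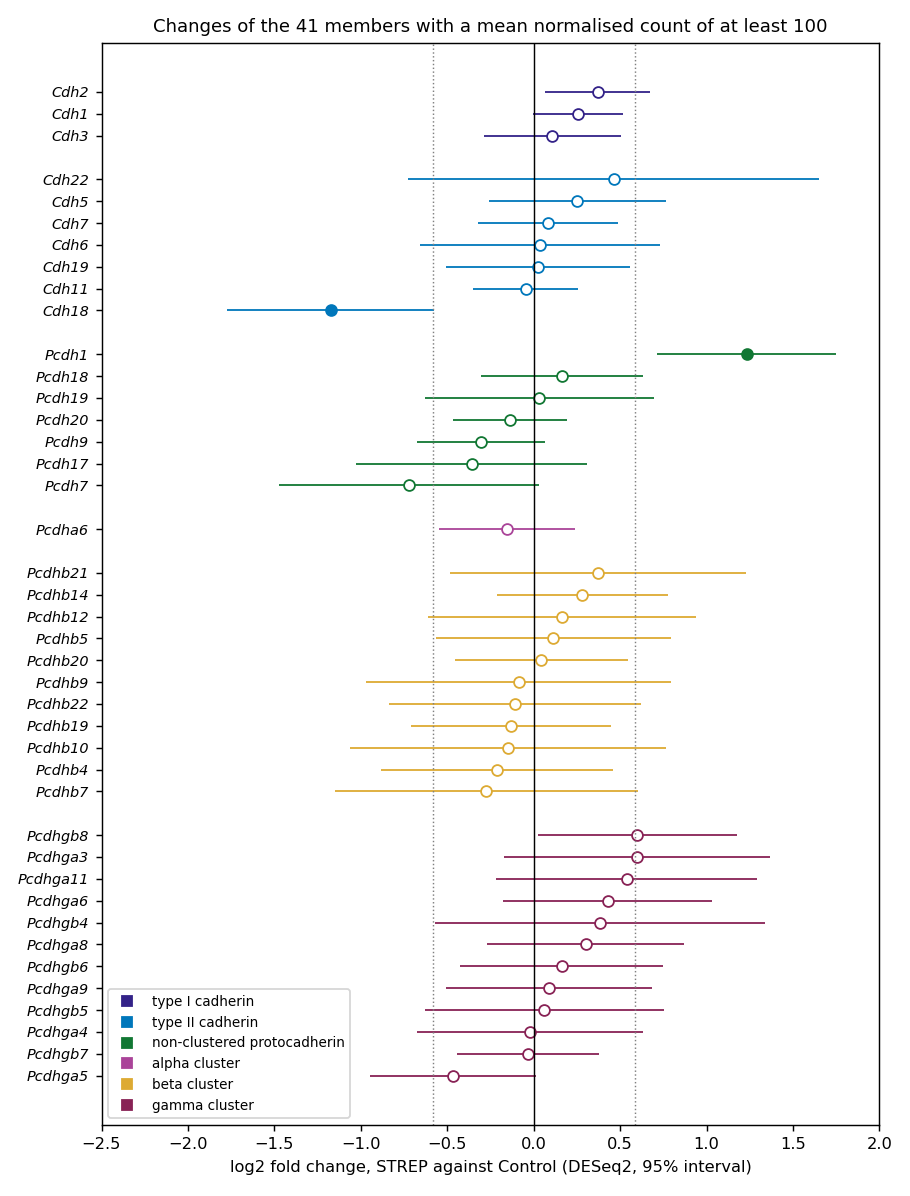
Log2 fold change of STREP against Control for the 41 members whose mean normalised count reached 100, from DESeq2, with 95% intervals and n = 3 animals per group. Filled points are the 2 called members, Cdh18 at -1.17 and Pcdh1 at 1.23, dotted lines mark the 1.5-fold threshold, and the other 39 points are open.

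Pcdh1, a non-clustered protocadherin found at cell contacts of epithelia, read 179, 131 and 206 normalised counts in the Control animals. It read 397, 376 and 441 in the STREP animals. The lowest STREP value lay above the highest Control value, and the female of each group was its highest animal. The mean was 172 ± 38.2 in Control and 405 ± 33.5 in STREP (SD, n = 3), or 1.23 ± 0.26 (SE) as a log2 fold change. This was a 2.35-fold rise with a 95% interval from 1.64 to 3.36 (DESeq2 adjusted p = 0.000256). The log2 fold change lay between 1.07 and 1.38 when any animal was left out and Pcdh1 was called each time. It was 1.26 after all libraries were thinned to the smallest total (DESeq2 adjusted p = 0.000266).

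Cdh18, a type II cadherin known from the nervous system, read 719, 635 and 842 in the Control animals. It read 194, 475 and 302 in the STREP animals. The groups did not overlap, and the STREP animals differed among themselves more than the Control animals did. The mean was 732 ± 104 in Control and 324 ± 142 in STREP (SD, n = 3), or -1.17 ± 0.31 (SE) as a log2 fold change. Cdh18 was thus 2.26-fold lower in STREP, with a 95% interval from 1.49 to 3.42 (DESeq2 adjusted p = 0.00589). Cdh18 is in a gene list that the study drew partly from these samples, so its direction here is not independent evidence. From earlier literature, that list marks Cdh18 as selective for hair cells over supporting cells.

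The call of Cdh18 was less stable than that of Pcdh1. Its log2 fold change ranged from -1.56 to -0.91 when an animal was left out, and it was not called without Control replicate 3 (-1.06, DESeq2 adjusted p = 0.109). The quasi-likelihood test of edgeR with a count filter gave -1.17 with an adjusted p of 0.0846, where Pcdh1 had 1.23 with an adjusted p of 0.0370. That test called Pcdh1 alone among the members and 1.77% of all 14928 genes it kept. Among the 2 males of each group alone, the log2 fold change was -1.01 for Cdh18 (DESeq2 adjusted p = 0.199) and 1.31 for Pcdh1 (DESeq2 adjusted p = 0.0223). With the fold threshold set inside the Wald test, neither passed (adjusted p = 1 for both). After thinning to the smallest total, the log2 fold change of Cdh18 was -1.16 (DESeq2 adjusted p = 0.00594).

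The summed normalised count of the 10 hair cell markers ran from 95236 to 98601 in Control and from 75608 to 93401 in STREP, with 9 of 10 lower, 1 called lower (Cabp2) and 1 called higher (Gfi1). The 5 type I hair cell markers in the table summed to 295804 to 399637 in Control and 176287 to 324060 in STREP. These sums overlapped, and 4 of the 5 genes were called lower. Spp1 made up most of the sum and was not called (log2 fold change -0.43). None of these markers was at 0 in any library. In RNA from whole tissue, fewer cells of a type and less RNA per cell cannot be told apart, and the part of these markers in the values of Cdh18 or Pcdh1 was not tested. The sums of supporting cell, type II hair cell, Schwann cell, endothelial, fibroblast, neuron, macrophage, melanocyte and dark cell markers overlapped between the groups. Otog made up most of the supporting cell sum, and its own groups did not overlap (log2 fold change 0.50). Pmel made up most of the melanocyte sum and was higher (0.29), while 3 of the 4 melanocyte markers were lower. Of the 7 Schwann cell markers 6 were lower in STREP. The groups did not overlap for 3 of them, Mag and Mbp, which were lower, and Sox10. Prx was called lower (log2 fold change -0.68) with overlapping groups, and Sox10 was called higher (0.95). Of the 6 neuron markers 4 were lower, with a median log2 fold change of -0.10, and Tubb3 alone was called, higher (1.28).

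**Figure D2:**
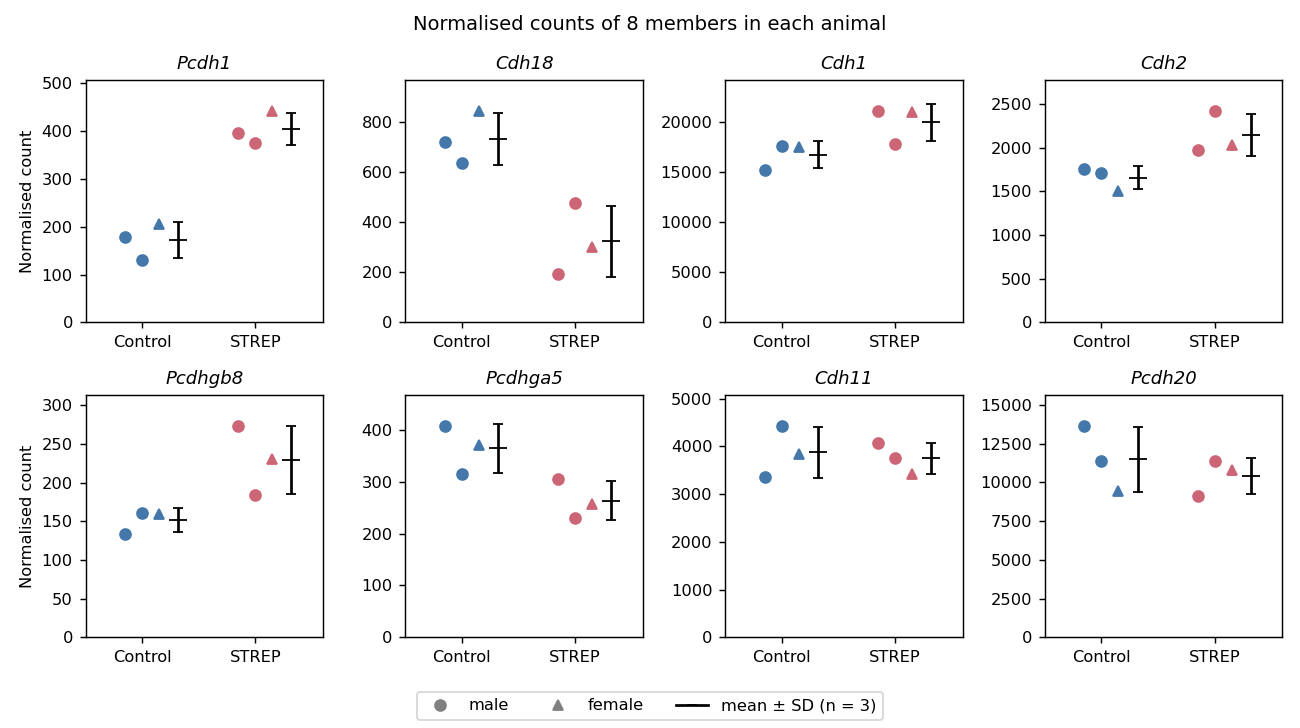
Normalised counts of 8 members in each animal, Control in blue and STREP in red, with circles for males, triangles for females, and the mean ± SD of 3 animals beside each group. Control and STREP animals do not overlap for Pcdh1, Cdh18, Cdh1, Cdh2, Pcdhgb8 and Pcdhga5, and they overlap for Cdh11 and Pcdh20.

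The stretches before the start sites of the 2 called members are shown because they are the only members past the threshold, and they differ in composition. RefSeq promoter windows of the GRCr8 build, 250 bases before to 50 after an annotated start, were found for 43 of the 62 member symbols. Capitals mark GGGCGG, the letters of a GC box, and CCAAT, the letters of a CCAAT box, searched on both strands. The 250 bases before the start of Pcdh1 lie at chr18:30290437-30290686 on the minus strand and those of Cdh18 at chr2:75075345-75075594 on the plus strand.
Pcdh1: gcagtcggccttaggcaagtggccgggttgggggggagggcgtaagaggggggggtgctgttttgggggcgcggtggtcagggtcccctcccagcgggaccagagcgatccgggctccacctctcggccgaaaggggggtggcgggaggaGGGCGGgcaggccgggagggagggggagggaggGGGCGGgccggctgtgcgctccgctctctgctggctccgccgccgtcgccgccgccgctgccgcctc
Cdh18: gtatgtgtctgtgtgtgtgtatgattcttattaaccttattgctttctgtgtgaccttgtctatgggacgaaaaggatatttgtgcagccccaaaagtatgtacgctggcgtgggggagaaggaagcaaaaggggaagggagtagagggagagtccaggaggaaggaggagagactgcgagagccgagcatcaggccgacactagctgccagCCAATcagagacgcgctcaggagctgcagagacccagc
The 300-base window of Pcdh1 had 76.3% G or C and 33 CpG dinucleotides, that of Cdh18 56.3% and 11, and the median of 33469 rat promoters was 51.7% and 7. GGGCGG was found 2 times before the start of Pcdh1 and not in the window of Cdh18, and 33.1% of all promoters held it. CCAAT was found 1 time before the start of Cdh18 and not in the window of Pcdh1, and 37.5% of all promoters held it. These matches describe letters in a window and were not linked to the counts by any test.

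Among the 5 type I cadherins, all 5 had fold changes above 1, with log2 values between 0.11 and 0.40. Of all 16250 genes tested, 8281 were higher. The highest of the 5, Cdh4, had an SE of 0.82, and Cdh15 had an SE of 0.70. None was called by DESeq2 or edgeR, and 1 had an unadjusted p under 0.05 in DESeq2. Cdh1, the cadherin of epithelial adherens junctions, read 15202, 17609.6 and 17499 in Control and 21081, 17864 and 21061 in STREP. The groups did not overlap, although STREP replicate 2 stood just above the highest Control animal. The log2 fold change was 0.25 with an SE of 0.13 (DESeq2 adjusted p = 0.436). Cdh2, the N-cadherin of neural and sensory tissues, read 1755, 1709.5 and 1503 in Control and 1977, 2415 and 2029.9 in STREP. These groups did not overlap either, and the log2 fold change was 0.37 ± 0.15 (SE), with an unadjusted p of 0.0166 and a DESeq2 adjusted p of 0.221.

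Cdh3, the P-cadherin of epithelia, overlapped between the groups, with 889, 689 and 654 in Control and 699, 898 and 808 in STREP (log2 fold change 0.11 ± 0.20, SE). Cdh4 and Cdh15, which encode R-cadherin and M-cadherin, stayed below 87 normalised counts in every animal. Summed over the 5 genes, type I counts were 17894, 20097 and 19752 in Control and 23922, 21219 and 23975 in STREP. All 3 STREP sums lay above the Control sums, a log2 ratio of 0.26, and Cdh1 made up 87.0% of the sum. Groups that did not overlap were found for 17.8% of all genes tested and for 18.7% of those with a mean of at least 100. Among members the counts were 7 of 57 and 6 of 41.

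Of the 13 type II cadherins 11 were tested, and Cdh18 was the only one called. The largest part of the type II sum, 47.4%, came from Cdh11, a cadherin of mesenchymal cells. Cdh11 read 3353, 4420.5 and 3846 in Control and 4069, 3751 and 3427 in STREP, with overlapping groups and a log2 fold change of -0.05 ± 0.15 (SE, 95% interval -0.35 to 0.26). Cdh5, the VE-cadherin of endothelium, read 1154, 1577 and 1512 in Control and 2294, 1039.7 and 1720.3 in STREP. STREP replicates 1 and 2 were the highest and the lowest of the 6 animals. The summed endothelial markers were also highest in STREP replicate 1, at 14553 against 12378 to 13337 in Control. They were lowest in STREP replicate 3, at 11638, where Cdh5 read above every Control animal. Cdh5 gave a log2 fold change of 0.25 ± 0.26 (SE), and none of the 7 endothelial markers in the table was called.

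Cdh19, a cadherin of the Schwann cell lineage, read 952, 1177 and 549.5 in Control and 1017, 743 and 963 in STREP, and the lowest value was that of the Control female. Its log2 fold change was 0.02 ± 0.27 (SE), and the summed Schwann cell markers overlapped between the groups, from 226914 to 307480 in Control and from 123085 to 253226 in STREP. Cdh22 had the highest log2 fold change of the type II members with a mean of at least 100, 0.46 ± 0.61 (SE), and its values spread widely in both groups. On males alone its log2 fold change was 1.80 (DESeq2 adjusted p = 0.0679), and the interaction of sex and group, female minus male, was -3.23 with an unadjusted p of 0.00121 in DESeq2. The Cdh22 counts were 55.2, 57.8 and 237 in Control and 118, 274 and 88.3 in STREP. The log2 fold change was 0.08 for Cdh7 and 0.04 for Cdh6, each smaller than its SE of 0.21 and 0.35. Cdh8, Cdh12, Cdh20 and Cdh24 read between 0 and 191 normalised counts and were not called. The type II sum had a log2 ratio of -0.03, with overlapping groups.

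The 4 other numbered cadherins were low or not detected. Cdh13, the cadherin anchored to the membrane by a lipid, read 35.0, 59.5 and 42.1 in Control and 65.2, 124 and 31.4 in STREP (log2 fold change 0.70 ± 0.60, SE). Cdh17, the liver-intestine cadherin, had counts in STREP replicate 1 alone, 24 in all, and was listed at 0 in the other 5 libraries. Cdh26 had counts in 2 Control animals only, at most 7, and Cdh16 had none. No fold is given for genes at this level.

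Among the 10 non-clustered protocadherins 9 were tested, with Pcdh1 the only one called. Pcdh20, which took 76.4% of the summed counts of these genes and the most in each of the 6 libraries, read 13636, 11406 and 9428 in Control. It read 9132, 11378 and 10797 in STREP, within or just below the Control range. The log2 fold change was -0.14 ± 0.17 (SE, 95% interval -0.47 to 0.19). Pcdh18 read 1120.0, 1432 and 981 in Control and 1093, 1779 and 1082 in STREP, with a log2 fold change of 0.16 ± 0.24 (SE). Pcdh9 read 1058, 1024 and 879.8 in Control and 944, 742 and 712 in STREP. Its groups overlapped through STREP replicate 1, and the log2 fold change was -0.30 with an SE of 0.19 (DESeq2 adjusted p = 0.565).

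Pcdh7 had the lowest log2 fold change of the group, -0.72 ± 0.38 (SE), with 159, 369 and 242 in Control and 126, 129.6 and 211 in STREP. The groups overlapped and the DESeq2 adjusted p was 0.446. Pcdh17 gave -0.36 ± 0.34 and Pcdh19, the protocadherin whose human gene is mutated in an epilepsy of females, gave 0.03 ± 0.34 (SE). Pcdh12, a protocadherin of endothelial cells, read 69.3 and 71.4 in 2 Control animals and 85.2 and 18.0 in 2 STREP animals, and it was listed at 0 in replicate 2 of both groups. Pcdh8 and Pcdh10 stayed under 9 normalised counts. The non-clustered sum was 16783, 15325 and 12534 in Control and 12655, 14984 and 13776 in STREP, a log2 ratio of -0.11 with overlapping groups.

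**Figure D3:**
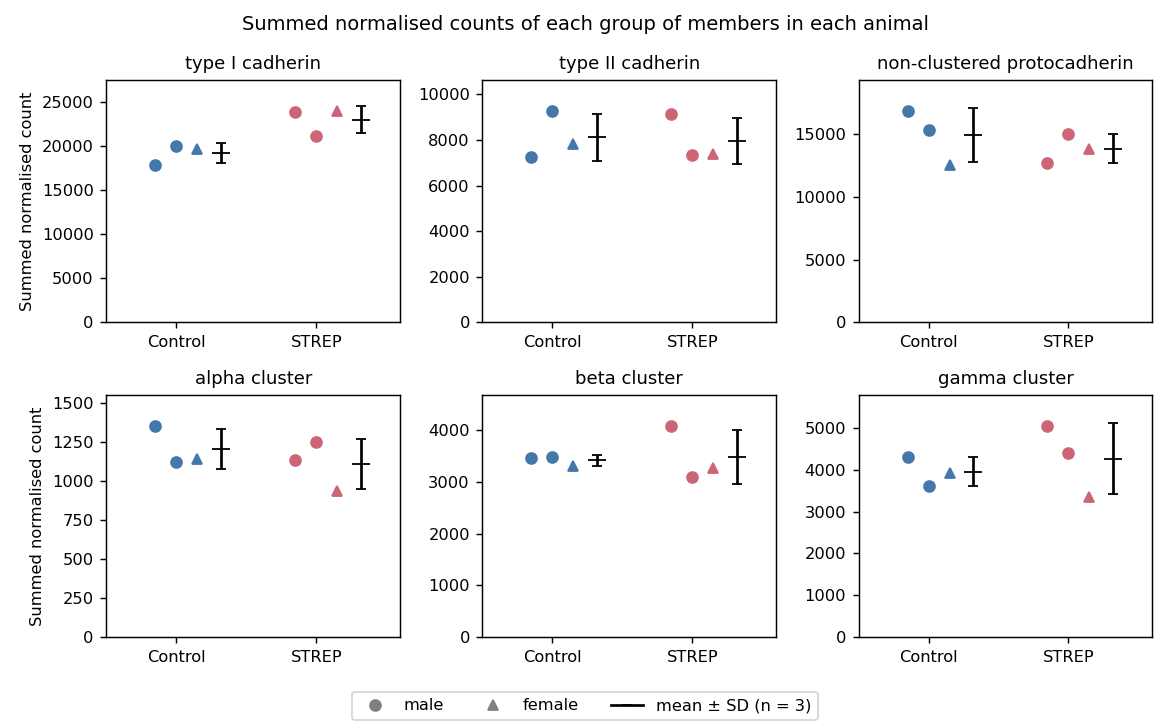
Summed normalised count of each group of members in each animal, with circles for males, triangles for females, and the mean ± SD of 3 animals. The STREP sums of type I cadherins, 21219 to 23975, lie above the Control sums, 17894 to 20097, and the other 5 panels overlap. The 4 other numbered cadherins are not drawn.

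None of the 31 clustered protocadherin rows was called by DESeq2 or edgeR. In DESeq2 30 rows were tested and 2 had an unadjusted p under 0.05, Pcdhb2 and Pcdhgb8. The table held 3 rows for the alpha cluster, 2 of them under the symbol Pcdha4 (ENSRNOG00000047174 and ENSRNOG00000050378). The alpha isoforms share constant exons, and so do the gamma isoforms, so expected counts divide shared reads among rows and single rows are uncertain. Pcdha6 took 92.04% of the alpha sum and read 1283, 1018 and 1060.4 in Control and 943, 1232 and 839 in STREP. The groups overlapped, with a log2 fold change of -0.16 ± 0.20 (SE). The Pcdha4 rows read 51.6, 91.0 and 60.2 against 185, 16.2 and 73.3, and 14.1, 12.8 and 16.3 against 7.99, 0 and 22.4.

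The promoters of the beta cluster share a stretch that other promoters rarely hold, and it is shown here for the beta rows described and for Pcdhb2. The 10 letters GGTGGCGCTG were present in 13 of the 14 beta promoters with a window, on the strand of the gene and with the first letter between positions -208 and -46 from the start, and in 74 of all 33469 promoters (0.221%). The beta member without it was Pcdhb1, which was listed at 0 in all libraries. Pcdhb2 holds it and read at most 41.0 normalised counts. They are the longest run shared by all but 1 of the beta windows and contain CGCT, which 60.9% of all promoters held. The 30-base windows below lie on the plus strand of GRCr8 chromosome 18, with the shared letters in capitals.
Pcdhb14 (chr18:29431811-29431840): gaacgcttGGTGGCGCTGcaggctaagaaa
Pcdhb19 (chr18:29478766-29478795): agacacatGGTGGCGCTGcaggataatgtt
Pcdhb20 (chr18:29485812-29485841): agacacatGGTGGCGCTGtaggataagatc
Pcdhb21 (chr18:29492151-29492180): agtcacatGGTGGCGCTGcaggataggatg
Pcdhb7 (chr18:29329000-29329029): ggacgcagGGTGGCGCTGcaggctaagatt
Pcdhb2 (chr18:29279925-29279954): gaacgcagGGTGGCGCTGcagcctcagaaa

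In the beta cluster 15 of 16 rows were tested, 7 with a log2 fold change above 0 and 8 below, with a median of -0.09. Pcdhb14 read 589, 374 and 469 in Control and 640.4, 658 and 443 in STREP (log2 fold change 0.28 ± 0.25, SE). Pcdhb19 read 326, 559 and 570.2 in Control and 529.9, 311 and 489 in STREP (-0.13 ± 0.30, SE). The groups of both genes overlapped, and of the beta rows Pcdhb14 took the most counts in 3 libraries and Pcdhb19 in the other 3. Pcdhb20 read 356, 485 and 449.8 in Control and 505, 502 and 322 in STREP, a log2 fold change of 0.04 ± 0.26 (SE).

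The beta rows with a mean of at least 100 ran from Pcdhb7, at -0.27 ± 0.45 (SE), to Pcdhb21, at 0.37 ± 0.44 (SE), on the log2 scale. Pcdhb7 read 209, 216 and 313 in Control and 328, 77.7 and 206 in STREP. Pcdhb21 read 98.8, 320.5 and 190.1 in Control and 382, 182 and 223 in STREP. In both genes the STREP animals took in the highest value of all 6, and in Pcdhb7 also the lowest. Pcdhb2 did not overlap between the groups, with 0, 5.95 and 0 in Control and 9.32, 41.0 and 5.98 in STREP, but it had at most 38 counts in a library and was called, of all alternatives tried, only without Control replicate 2. The beta sum was 3461, 3481 and 3296 in Control and 4071, 3098 and 3264 in STREP, a log2 ratio of 0.03.

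The longest run shared by all but 1 of the gamma windows was shorter, CGCTGTT, in 6 of the 7 gamma windows found and in 1.98% of all promoters. It was also found in Pcdhb3, where it overlaps the beta run. The window of Pcdhgb8, the gamma row with the highest log2 fold change, is shown with the run in capitals.
Pcdhgb8 (chr18:29839501-29839530): ctctgggcgcCGCTGTTgtccaattcgctg
Pcdhga5 and Pcdhgb8 had the lowest and the highest log2 fold change of the gamma rows, and the groups of each did not overlap. Pcdhga5 read 407, 315 and 372 in Control and 305, 230.0 and 257 in STREP, a log2 fold change of -0.47 with an SE of 0.24 (DESeq2 adjusted p = 0.434). Pcdhgb8 read 133, 161 and 160.0 in Control and 273, 185 and 230.4 in STREP, a log2 fold change of 0.60 with an SE of 0.29 (DESeq2 adjusted p = 0.372). In both, every STREP animal lay on the same side of every Control animal, and neither passed the test.

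The 12 gamma rows all had a mean of at least 100, and 9 had a log2 fold change above 0, with a median of 0.23. Pcdhgb7 took 31.9% of the gamma sum and the most counts in all 6 libraries, with 1447, 1172 and 1349 in Control and 1471, 1468 and 939 in STREP. Its log2 fold change was -0.03 ± 0.21 (SE, 95% interval -0.44 to 0.38). Pcdhga6 read 308, 422 and 296 in Control and 674, 355 and 352 in STREP (0.43 ± 0.31, SE), and its difference rested on STREP replicate 1, without which the log2 fold change was 0.05. Pcdhgb6 read 479, 376 and 365 in Control and 660.4, 394 and 311 in STREP (0.16 ± 0.30, SE). The gamma sum was 4310.0, 3617 and 3909 in Control and 5035, 4407 and 3354 in STREP, a log2 ratio of 0.11 with overlapping groups.

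Animals of the same group differed in their clustered protocadherins. The within-group coefficient of variation (CV), the pooled SD over the mean, had a median of 34.5% over the 11 beta rows with a mean between 100 and 1000 and of 29.0% over 11 gamma rows. It was 19.4% over the 5985 genes in that range. All 11 beta rows had a CV above the median of all genes at a like level, against 7 of 12 gamma rows, 6 of 7 type II cadherins, 5 of 7 non-clustered protocadherins and 0 of 3 type I cadherins. The CV reached 47.6% for Pcdhb10, where Control read 75.5, 100.3 and 231, and was lowest among the clustered rows in that range for Pcdhga5, at 13.6%. The beta sum had an SD of 101 around 3413 in Control and of 521 around 3478 in STREP. A sum averages over its rows, so a smaller relative spread than that of single rows is no trait of this cluster. No like sum of other genes was compared. All these values are descriptions with no test. The clustered rows lie at 1 locus, and the gamma rows share reads through their constant exons.

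**Figure D4:**
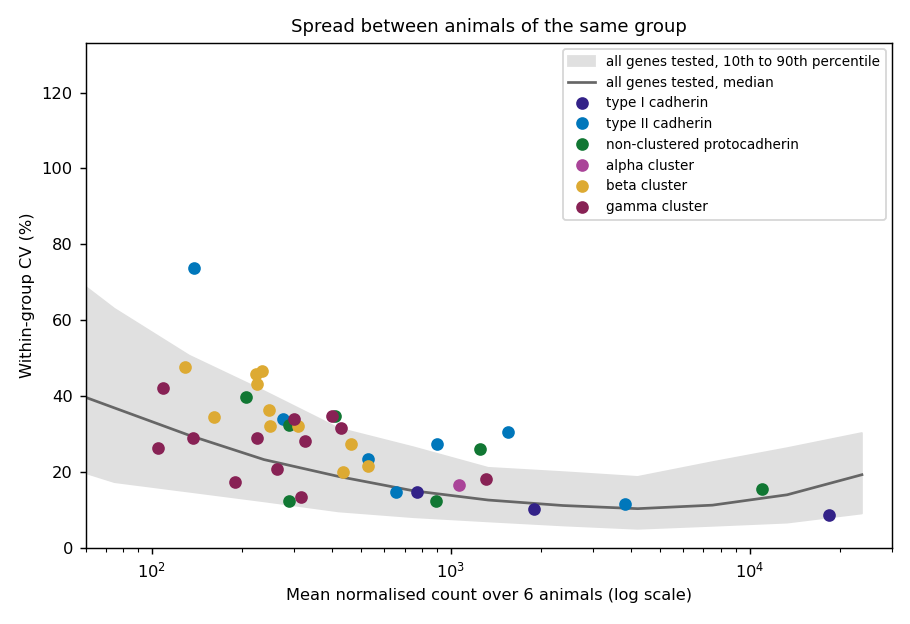
Within-group CV in percent against the mean normalised count over 6 animals (log scale) for the 41 members with a mean of at least 100, coloured by group, with the median (line) and the range from the 10th to the 90th percentile (grey) of all genes tested. All 11 beta points lie above the median line, and all 3 type I points lie below it.

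Replicate 3, the only female of each group, was seldom the highest of its group among the members, though it was for Pcdh1. With 1 female per group, sex and the single animal cannot be told apart. STREP replicate 3 was the highest STREP animal for 4 of the 41 members with a mean of at least 100, and for 36.0% of all genes at that level. For the 12 gamma rows it was never the highest, and STREP replicate 1 was the highest for 8. Control replicate 3 was the highest Control animal for 8 of the 41 members, against 33.9% of all genes. The difference between sexes in the response was fitted as an interaction in DESeq2, with 1 female per group, and no member passed at an adjusted p of 0.05. The smallest adjusted p was 0.187 (Cdh22), 4 members had an unadjusted p under 0.05, and 34 genes passed in the whole table.

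The genes that cadherins and protocadherins work with were read from 7 lists of 85 symbols, of which 80 were in the table and 76 were tested. Called genes numbered 3 of 76 (3.95%), beside 3.24% of all genes, with 2 higher and 1 lower. Of the 16 catenins and junction partners 1 was called lower, of the 8 desmosomal genes tested 1 was called higher, and of the 14 atypical cadherins tested 1 was called higher. None was called among 7 shedding proteases, 14 promoter and looping factors, 11 cytoplasmic partners of protocadherins or 6 repressors of cadherin transcription by DESeq2 with all 6 animals or by edgeR, and 5 genes of these lists had an unadjusted p under 0.05 in DESeq2. With 1 animal left out, DESeq2 called Ctcf without Control replicate 3 and Mmp2, a matrix metalloprotease, without STREP replicate 1.

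Clstn1, which encodes calsyntenin 1, a cadherin-like protein that binds kinesin and is found at synapses, read 2667, 3302 and 4182 in Control. It read 9083, 7071 and 8580.5 in STREP, so every STREP animal was above every Control animal. The log2 fold change was 1.29 with an SE of 0.19 (DESeq2 adjusted p = 1.67e-09), and Clstn1 was called under every alternative tried. Ctnna2, the alpha catenin known from neurons, read 181, 189.6 and 255 in Control and 112, 109 and 83.8 in STREP, a log2 fold change of -1.04 with an SE of 0.32 (DESeq2 adjusted p = 0.0409). It was not called by edgeR, with sex as a covariate, with library totals as size factors, on males alone, after thinning, with the fold threshold inside the Wald test, or when any 1 animal was left out. Dsc3, a desmosomal cadherin, read 3.68, 0 and 0 in Control and 51.9, 23.8 and 13.5 in STREP, at most 39 counts in a library, and was called by DESeq2 (adjusted p = 0.0254) but not by edgeR. With 1 animal left out, DESeq2 called Dsc3 only without Control replicate 1, and it was not called with the filter of 10 counts in 3 libraries, with library totals, on males alone or with the fold threshold inside the test.

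Unlike Ctnna2, the catenins Ctnnb1, Ctnnd1, Jup and Ctnna1 were not called. Ctnnb1 (beta catenin) read 3634, 3019 and 3969.8 in Control and 4595, 3986 and 4395 in STREP, groups that did not overlap, with a log2 fold change of 0.29 with an SE of 0.15 (DESeq2 adjusted p = 0.439). The log2 fold change was 0.31 for Ctnnd1 (p120 catenin), 0.20 for Jup (plakoglobin) and -0.05 for Ctnna1 (alpha catenin of epithelia). Ctcf, whose protein shapes the loops through which clustered protocadherin promoters meet their enhancers, read 1116, 994 and 1232 in Control and 1563, 1719.9 and 1598 in STREP. It passed the adjusted p (0.0167) with a log2 fold change of 0.55 ± 0.16 (SE), a 1.46-fold difference under the 1.5-fold threshold, and so was not called except without Control replicate 3.

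**Figure D5:**
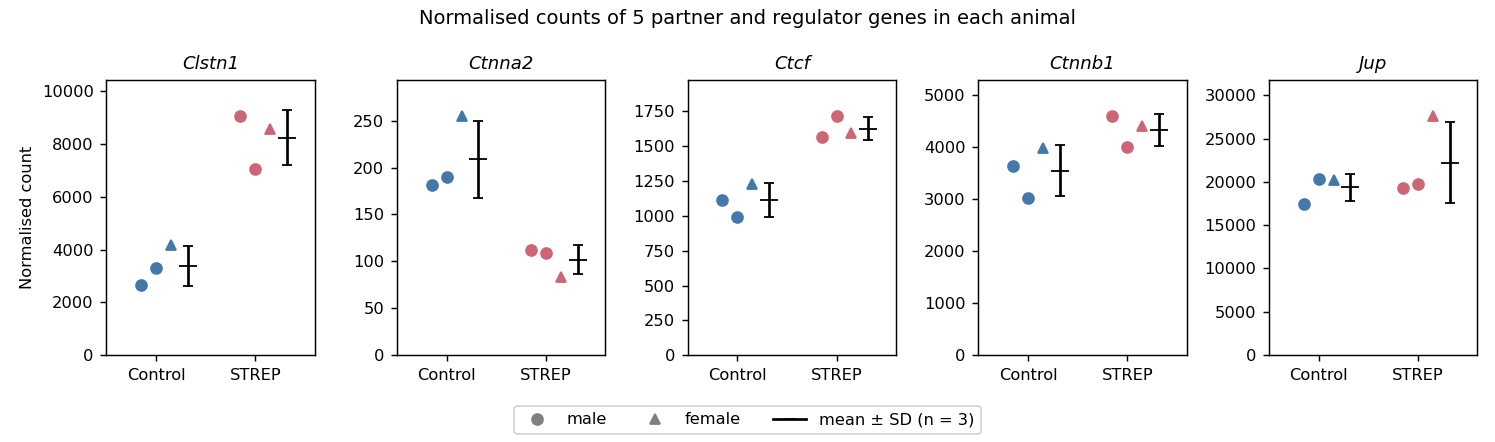
Normalised counts of 5 partner and regulator genes in each animal, with circles for males, triangles for females, and the mean ± SD of 3 animals. Control and STREP do not overlap for Clstn1, Ctnna2, Ctcf and Ctnnb1, and they overlap for Jup, whose highest value, 27638, is that of the STREP female.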

How the data were processed

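RNA from the vestibular epithelium of 6 rats was converted to SMARTseq2 libraries. The authors aligned reads with STAR 2.5.3a to the Rnor6.0 genome and deposited RSEM 1.3.0 expected counts per gene, with no scaling between libraries (versions per the labels). All deposited expected counts were whole numbers. RSEM divides reads shared by similar genes, so rows with common exons are uncertain. Groups came from the labels, and replicates were numbered in deposition order and pair no animals. Whether the spread between animals is biological or technical is not separated by the p-values.

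In R 4.3.3, all genes were fitted with DESeq2 1.42.0 (median-of-ratios scaling, group as the only term, Wald test, independent filtering), with p-values adjusted by the Benjamini-Hochberg method over all genes tested. The quasi-likelihood test of edgeR 4.0.16, other scalings, filters, males alone, thinning and leaving out each animal were alternatives. Both tests were run on simulated data with known changes, where DESeq2 recovered more of the changed genes than edgeR and also made more false calls, above its nominal rate.

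Named members were those called, the 3 with the highest mean in each group, the highest and lowest fold change of each group at a mean of at least 100, and those without overlap at that mean. Others named below that level were chosen after their values were seen. The members and lists were chosen with earlier results of these data known. Promoter windows came from RefSeq (GRCr8), a different build from that of the counts, and 19 member symbols had none there and were not analysed here. One sequence window is not reported here.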

Additional observations from a re-analysis of the deposited data

How the results depend on the processing

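Calls over all genes numbered 264 by edgeR with a count filter, 295 by edgeR without one, 309 with library totals as size factors and 82 with the fold threshold inside the Wald test, against 527. Under the first 3 of these and on males alone, 1 member was called, Pcdh1, with 0 classical cadherins and 1 partner gene. With the threshold inside the test, 0 members, 0 classical cadherins and 0 non-clustered protocadherins were called, with 1 partner gene. Cdh18 lost its call at log2 values of -1.17 (edgeR with a filter), -1.18 (edgeR without), -1.15 (library totals), -1.01 (males alone) and -1.17 (threshold inside), and Pcdh1 at 1.23 with the threshold inside. The stricter null hypothesis and the smaller number of animals are part of those alternatives, and the cause was otherwise not tested.

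With 1 animal left out, the counts ran from 424 to 517 genes, 1 to 3 members, 0 to 1 classical cadherins, 0 to 1 clustered protocadherins and 1 to 2 partner genes, and the log2 fold change of Cdh18 from -1.56 to -0.91. Uncalled members changed sign in some of these fits. Their ranges were -0.14 to 0.058 for Cdh11, -0.23 to 0.27 for Cdh19, -0.17 to 1.51 for Cdh22, -0.036 to 0.50 for Cdh5, -0.12 to 0.33 for Pcdh18, -0.61 to 0.94 and -1.88 to 0.071 for the Pcdha4 rows, -0.36 to 0.070 for Pcdhb19, -0.080 to 0.23 for Pcdhb20, -0.0022 to 0.86 for Pcdhb21, -0.80 to 0.12 for Pcdhb7, -0.20 to 0.37 for Pcdhgb6 and -0.14 to 0.15 for Pcdhgb7. On males alone Cdh11 was 0.0070, Cdh19 -0.28 and Pcdhgb7 0.16, and with library totals Cdh19 was -0.015.

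No paired analysis was possible because the labels carry no replicate numbers shared between groups. With sex, which both groups share, as a covariate, 536 genes were called, with the members Cdh18 and Pcdh1 and the partners Clstn1 and Dsc3 among them, and Ctnna2 was not called. Depth was lower in every STREP library, and tested members with a mean under 100 had an SE of at least 0.53 on the log2 scale, against a median of 0.30 for the others.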
